A study of Boehmeria nivea with 18 samples.

Results

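In ramie (Boehmeria nivea), 4 growth-related genes were followed in stem bark, namely 3 genes of the auxin response and 1 cyclin gene. They were taken by identifier, whole_GLEAN_10003037 (AUX28), whole_GLEAN_10011684 (auxin-induced protein 10A5), whole_GLEAN_10002127 (SAUR32) and whole_GLEAN_10004658 (CYCU2-1), and are 4 of the 20840 annotated genes listed in at least 1 of the 6 transcriptome libraries. The genes had been selected on their expression in the stem sections compared here, as genes with lower values in the middle section. Differences between the sections are therefore given for them as a description. Fits across all genes also covered the 4 genes, and whether such a fit calls them is stated only beside the share of all genes it calls, not as evidence about them.

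The libraries were made from bark of the middle part of the stem (MPS), where the secondary walls of the fibers are thickening, and of the top part (TPS), where this growth has not begun. Both came from the cultivar Zhongzhu 1, with no treatment named, and each section had 3 replicates. Bark was taken from 5 plants at 40 days of age by the labels, and the methods give another age. Material was mixed, so that each library is a pool, and a bark sample holds epidermis, cortex, phloem and fibers together. In such samples, fewer cells of a type and less RNA per cell cannot be told apart.

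Auxin is a growth hormone that is abundant in young, elongating stem. Its response is held back by Aux/IAA proteins, short-lived repressors that bind auxin response factors, and auxin triggers the removal of these repressors. Among the genes then switched on are the Aux/IAA genes themselves and the SAUR genes (small auxin up RNA), whose small proteins promote cell expansion in Arabidopsis through acidification of the cell wall. Cyclins bind cyclin-dependent kinases, and the U-type cyclins, also called P-type, are a plant group that resembles a phosphate-signaling cyclin of yeast.

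The names are those of proteins of other species in Swiss-Prot to which the ramie genes were matched by the study. Its table writes another prefix before the gene number than the files do, and the names were joined on the number, on the assumption that both number the genes alike. AUX28 and 10A5 are proteins of soybean (Glycine max), while SAUR32 and CYCU2-1 are proteins of Arabidopsis thaliana. The coding lengths in the files were 849 bases for AUX28, 708 bases for CYCU2-1, 369 bases for SAUR32 and 300 bases for the 10A5 gene. All 20840 annotated genes had lengths that are multiples of 3, so that UTRs are not part of them. Chromosome positions and sequences of the 4 genes were not analysed here.

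The values are expected counts, the number of reads that RSEM assigned to a gene, and FPKM, which scales them to the length of the gene and the depth of the library. Expected counts summed to between 49056682 and 52971221 per library, and 16000 to 17023 annotated genes were listed per library. A gene under 0.01 FPKM is not listed in a library and was taken as 0. The replicate 1 libraries stood apart in the secondary wall. CESA7, a cellulose synthase of secondary walls, was at 46.4, 151 and 162 FPKM in MPS replicates 1, 2 and 3 and at 50.9, 10.5 and 10.8 FPKM in TPS replicates 1, 2 and 3. The summed level of 3 secondary wall markers (CESA7, the IRX1 ortholog and FLA12) was 99.6 to 419 FPKM in MPS and 24.4 to 115 FPKM in TPS, with TPS replicate 1 above MPS replicate 1. TPS replicate 1 thus went against its label in these markers, and the values without replicate 1 are given below for each of the 4 genes.

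AUX28, the Aux/IAA repressor, was at 9.60, 27.1 and 23.8 FPKM in MPS replicates 1, 2 and 3, against 50.9, 159.8 and 144 FPKM in TPS replicates 1, 2 and 3. All MPS libraries lay below all TPS libraries, and replicate 1 was the lowest library in each section. The mean was 20.1 ± 9.28 FPKM in MPS and 118 ± 58.9 FPKM in TPS (SD, n = 3 libraries per section), and the MPS mean was 5.88-fold lower. The fitted log2 fold change of MPS over TPS in edgeR was -2.59 (standard error 0.63).

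Within replicate numbers, the difference in AUX28 was nearly the same although its level was not. The log2 ratio of MPS over TPS in FPKM was -2.41 for replicate 1, -2.56 for replicate 2 and -2.60 for replicate 3. Over the same pairs, the log2 ratio of CESA7 was -0.13, 3.85 and 3.91. The pair of replicate 1 libraries therefore differed in AUX28 about as much as the other pairs did, but not in CESA7. With replicates 2 and 3 only, the fitted log2 fold change of AUX28 was -2.64. Between 356 and 939 reads were assigned to AUX28 in MPS libraries and between 1930 and 5495 in TPS libraries. Counting error is therefore small beside the spread between replicates. Before rounding, these expected counts were not whole in any library, so that RSEM had split some AUX28 reads with other transcripts.

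**Figure D1:**
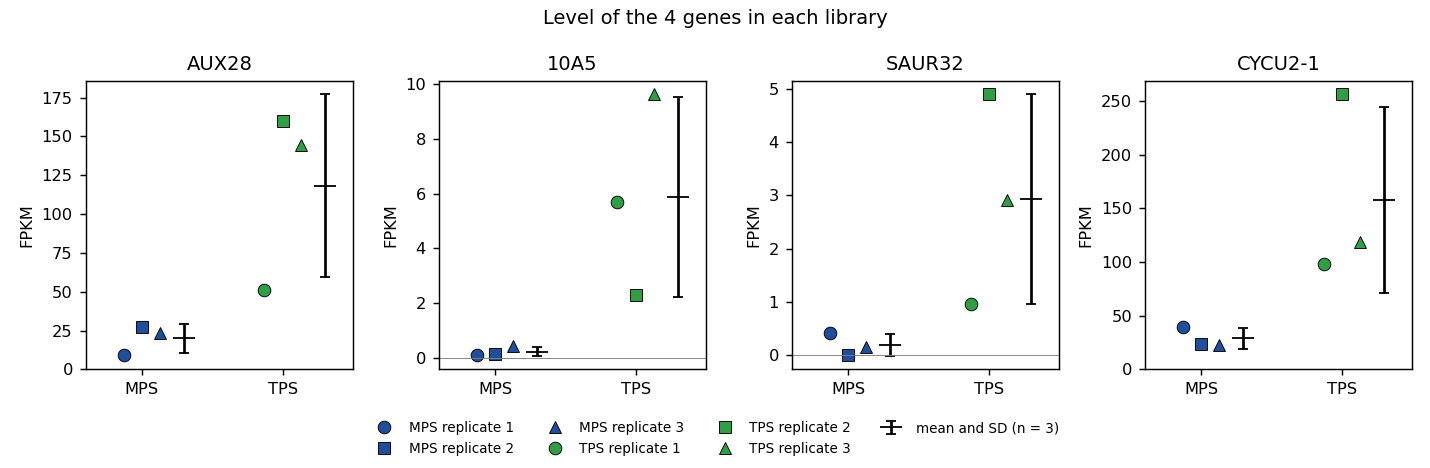
FPKM of AUX28, the 10A5 gene, SAUR32 and CYCU2-1 (y axis, linear, 1 scale per panel) in 3 MPS libraries (blue, left) and 3 TPS libraries (green, right), with the mean and SD beside each group. In each panel all MPS points lie below all TPS points, and the TPS points spread widely, from 50.9 to 159.8 FPKM for AUX28 and from 0.960 to 4.90 FPKM for SAUR32.

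The 10A5 gene (whole_GLEAN_10011684), a SAUR gene named after a soybean protein whose RNA is induced by auxin, was at 0.12, 0.14 and 0.430 FPKM in MPS replicates 1, 2 and 3. In TPS replicates 1, 2 and 3 it was at 5.69, 2.30 and 9.63 FPKM. The sections did not overlap, and the lowest TPS library was 5.35 times the highest MPS library. Unlike AUX28, this gene was lowest in replicate 2 within TPS. The mean was 0.230 ± 0.173 FPKM in MPS and 5.87 ± 3.67 FPKM in TPS (SD, n = 3), and the fitted log2 fold change was -4.65 (standard error 0.86).

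The MPS values of the 10A5 gene rest on very few reads. Its expected counts were 1, 1 and 3 in MPS, against 51.4, 17.0 and 74.4 in TPS. Scaled to the library totals, the sum in TPS was 28.2 times that in MPS, with an exact 95% counting interval of 11.8 to 88.3. This interval covers counting error only and leaves out the spread between replicates. With replicates 2 and 3 only, the log2 fold change was -4.40.

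SAUR32, whose Arabidopsis counterpart acts in the apical hook of the seedling, was at 0.420 and 0.150 FPKM in MPS replicates 1 and 3 and was not listed in MPS replicate 2. In TPS replicates 1, 2 and 3 it was at 0.960, 4.90 and 2.91 FPKM. The sections did not overlap, but the replicate 1 libraries lay close to each other, with TPS at 2.29 times MPS. For replicate 3 this ratio was 19.4. The mean of SAUR32 was 0.190 ± 0.213 FPKM in MPS and 2.92 ± 1.97 FPKM in TPS (SD, n = 3), and the fitted log2 fold change was -3.80 (standard error 1.19).

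Reads of SAUR32 were as scarce as those of the 10A5 gene. The expected counts were 5, 0 and 1.5 in MPS and 12, 52 and 32 in TPS. The summed count in TPS was 13.6 times that in MPS after scaling to the library totals (exact 95% counting interval 6.37 to 34.8, counting error only). Without replicate 1 the log2 fold change of SAUR32 was -5.25, and without TPS replicate 2 it was -3.16.

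CYCU2-1, the U-type cyclin, was at 39.7, 23.8 and 23.0 FPKM in MPS replicates 1, 2 and 3, against 98.1, 257 and 119 FPKM in TPS replicates 1, 2 and 3. The sections did not overlap. Replicate 1 was the highest library within MPS and the lowest within TPS, so that the replicate 1 pair was the closest. The log2 ratio of MPS over TPS was -1.30 for replicate 1, -3.43 for replicate 2 and -2.36 for replicate 3. The mean was 28.9 ± 9.42 FPKM in MPS and 158 ± 86.3 FPKM in TPS (SD, n = 3), with a fitted log2 fold change of -2.51 (standard error 0.49). It was -3.08 with replicates 2 and 3 only, and -1.87 without TPS replicate 2, the library with the highest value. All expected counts of CYCU2-1 were whole, from 615 to 1179 in MPS and from 2985 to 7025 in TPS, so that RSEM had split none of its reads with another transcript by a fraction.

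**Figure D2:**
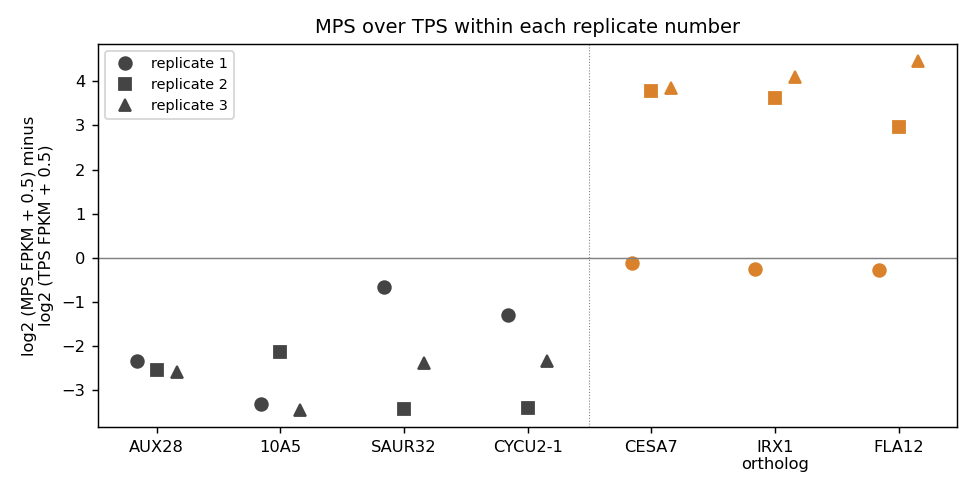
Difference between MPS and TPS on the log2 (FPKM + 0.5) scale (y axis) for each replicate number, for the 4 genes (dark points) and 3 secondary wall markers (orange points). All points of the 4 genes lie below 0, and those of AUX28 lie between -2.58 and -2.35. For CESA7, the IRX1 ortholog and FLA12, replicate 1 lies between -0.28 and -0.13, whereas replicates 2 and 3 lie at 2.97 or above.

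Of the 4 genes, CYCU2-1 and AUX28 were the abundant pair in both sections. FPKM is a value per length, so that levels can be set side by side between genes. In MPS, CYCU2-1 (28.9 FPKM) and AUX28 (20.1 FPKM) differed by less than the SD of 9.42 FPKM of CYCU2-1, and the 10A5 gene (0.230 FPKM) and SAUR32 (0.190 FPKM) also differed by less than their SD. In TPS the order was CYCU2-1 (158 FPKM), AUX28 (118 FPKM), the 10A5 gene (5.87 FPKM) and SAUR32 (2.92 FPKM). Here too, neighbours in the abundant pair and in the scarce pair differed by less than the larger SD of the pair. The ratio of CYCU2-1 over AUX28 within a library was 4.14, 0.880 and 0.969 in MPS replicates 1, 2 and 3 and 1.93, 1.61 and 0.821 in TPS replicates 1, 2 and 3. This ratio did not part the sections, and MPS replicate 1 was its highest library.

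Ranks within a library gave a view that does not depend on scaling. Among the annotated genes listed in a library, AUX28 stood at percentile 75.7 to 90.3 in MPS and 95.4 to 98.7 in TPS. CYCU2-1 stood at percentile 88.9 to 94.4 in MPS and 97.8 to 99.3 in TPS. The 10A5 gene stood at percentile 12.2 to 28.6 in MPS and 52.9 to 76.6 in TPS. SAUR32 stood at percentile 25.3 and 16.1 in the MPS libraries that list it and at 36.2 to 65.9 in TPS. Thus AUX28 and CYCU2-1 stood at percentile 75.7 or above in every library. The 10A5 gene and SAUR32 reached percentile 28.6 at most in MPS.

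In edgeR's quasi-likelihood test over 13585 annotated genes, 0 of the 4 genes were called lower in MPS, where a call needs a p under 0.05 after Benjamini-Hochberg adjustment and a change of 2-fold or more. The test called 76 genes lower (0.559%) and 33 higher (0.243%). The common dispersion between replicates was 0.366, and it was 0.207 with the replicate number as a block. With the replicate number as a block, edgeR called AUX28 lower, among 52 genes in all (0.383%, and 0.147% higher). DESeq2 called all 4 lower, among 694 genes (5.11%, and 2.86% higher). On log2 (FPKM + 0.5), limma called the 10A5 gene and CYCU2-1 lower, among 229 genes (1.84%, and 0.701% higher). With replicates 2 and 3 only, edgeR called AUX28 lower, among 201 genes (1.49%, and 0.842% higher). Without TPS replicate 1 alone, 0 of the 4 were called lower (background 0.233%, and 0.0493% higher). Every MPS library lay below every TPS library for all 4 genes, as it did for 1907 of the 20840 listed genes (9.15%). Among the 13585 genes tested by edgeR, which include the 4, it did so for 1599 (11.8%). As the genes were picked for this contrast, none of these calls is a test of them. Of the tested genes, 447 (3.29%) had a lower log2 fold change than AUX28, 477 (3.51%) than CYCU2-1, 210 (1.55%) than SAUR32 and 134 (0.986%) than the 10A5 gene.

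Further genes of the auxin response and of cell division were drawn by name from the part of the study's table of changed genes that was at hand. The study chose that table on these same libraries, so that neither the direction of these lists nor their share of low p is independent evidence. In the fit described above, edgeR called 0 genes of any of the 5 lists lower (background 0.559%) and 0 higher (background 0.243%). With the 4 genes above left out, unadjusted p in edgeR was under 0.05 for 6 of the 6 tested genes of the auxin lists and 4 of the 8 tested genes of the cell division lists. The share was 15.6% over all tested genes, and the choice of the lists alone can raise it. Again without the 4 genes, DESeq2 called 3 auxin and 4 cell division genes lower (background 5.11%). On log2 (FPKM + 0.5), limma called 2 and 0 (background 1.84%). Its filter differs from that of edgeR, and 14 auxin and 7 cell division genes passed it with the 4 genes included. Neither DESeq2 nor limma called any of them higher (background 2.86% and 0.701%). The median log2 fold change over all tested genes was 0.02.

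The SAUR list held 16 genes, among them the 10A5 gene and SAUR32, of which 4 passed the low-count filter of edgeR and 10 that of limma. The median log2 fold change of the 4 was -3.40, and it was -2.45 for the 2 of them other than the 10A5 gene and SAUR32. The summed level of the 16 genes was 2.44, 1.10 and 3.49 FPKM in MPS replicates 1, 2 and 3 and 23.9, 18.9 and 39.6 FPKM in TPS replicates 1, 2 and 3, which did not overlap. Of the 16 genes, 9 were listed in no MPS library and 10 were listed in all 3 TPS libraries. The share of all annotated genes listed in these ways was not computed. The 9 genes had only 9.0 to 35.0 summed counts in TPS, so that their absence from MPS rests on few reads. In 10 of the 16, every MPS library lay below every TPS library (background 9.15%), and in 0 every MPS library lay above (background 7.61%). The 10 include the 10A5 gene and SAUR32, which were picked for this difference, and the others come from the table of changed genes. That their share lies above the background is therefore no independent evidence. The 10A5 gene made up 4.92 to 12.7% of the summed FPKM in MPS and 12.2 to 24.3% in TPS.

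Of the 16 SAUR genes, 5 had the same best match among ramie proteins in the study's table, the 10A5 gene included, and the list had 11 different best matches in all. Reads of such related genes can be shared, and the expected counts of the 10A5 gene were not whole in 2 TPS libraries, so that its level is less certain than that of CYCU2-1. Of the others that share this match, the gene whole_GLEAN_10011691, also matched to 10A5, was at 0.710, 0.960 and 2.28 FPKM in MPS and 2.66, 3.79 and 7.89 FPKM in TPS replicates 1, 2 and 3. Its log2 fold change was -1.91 (standard error 0.72, adjusted p = 0.277 from edgeR, and 0.157 to 0.703 under the alternatives). The gene whole_GLEAN_10003581, matched to X10A, was listed in no MPS library and was at 0.640, 0.650 and 3.0 FPKM in TPS. Its summed count was at least 11.6-fold lower in MPS, taking 3 counts over the MPS libraries as the floor. The gene whole_GLEAN_10003571, matched to 10A5, was also listed in no MPS library and was at 2.72, 0 and 0.470 FPKM in TPS, at least 9.35-fold lower in MPS by the same floor. The last, whole_GLEAN_10003573, matched to X15, was listed at 0.140 FPKM in MPS replicate 3 only, and at 0.650, 0.530 and 0.250 FPKM in TPS. These last 3 genes did not pass edgeR's filter, and in the settings that tested them limma and edgeR without a filter gave adjusted p between 0.107 and 0.538. Of the genes that did not pass edgeR's filter, 2 were called lower by limma with 0.5 added, 1 with its filter and both without it, and they are named after their values were seen. Another gene matched to 10A5 (whole_GLEAN_10003578) was listed in no MPS library and was at 1.14, 1.12 and 1.61 FPKM in TPS. Its adjusted p was 0.0358 in limma and 0.0247 in limma without a filter, against 0.0565 with 0.1 added and 0.217 in edgeR without a filter. A gene matched to ARG7 of mung bean (whole_GLEAN_10008395) was also listed in no MPS library and was at 1.03, 0.840 and 1.34 FPKM in TPS. Its adjusted p was 0.0299 in limma without a filter, 0.0525 with the filter, 0.0755 with 0.1 added and 0.240 in edgeR without a filter.

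**Figure D3:**
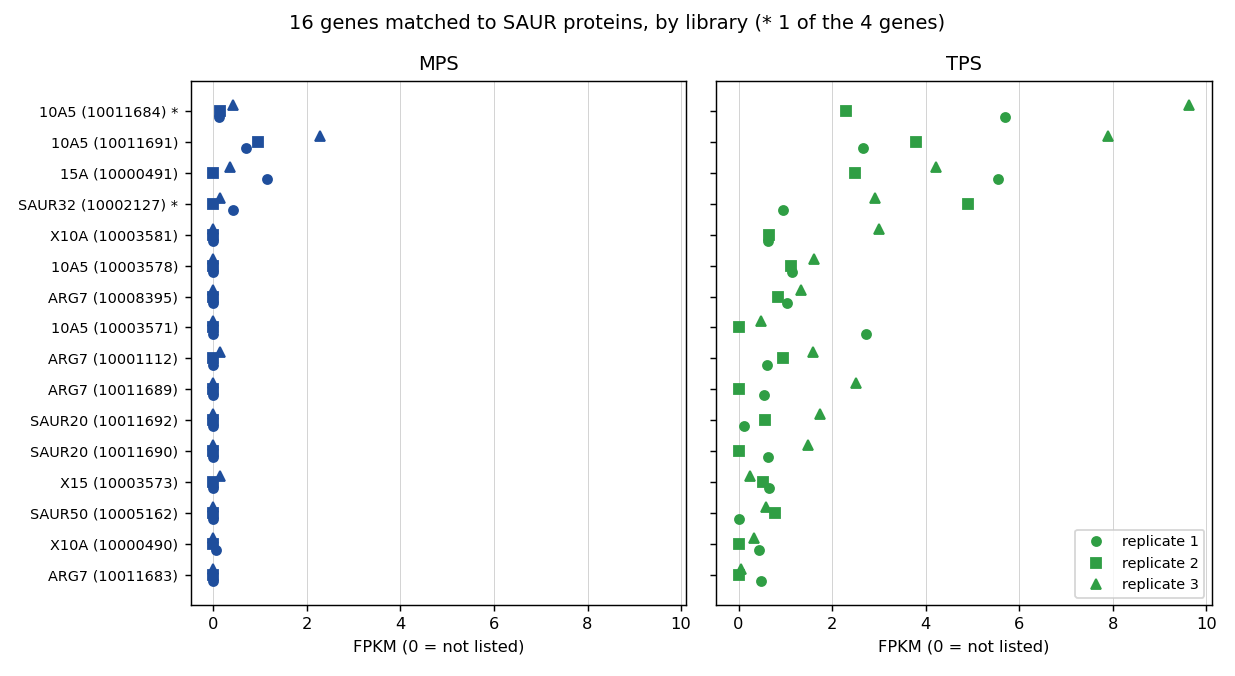
FPKM (x axis, linear, 0 meaning not listed) of the 16 genes matched to SAUR proteins, 1 row per gene, in the MPS libraries (left) and the TPS libraries (right), with a symbol for each replicate. No MPS point lies above 2.28 FPKM, while TPS points reach 9.63 FPKM in the 10A5 gene.

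In the Aux/IAA list, AUX28 was joined by IAA33 (whole_GLEAN_10006554), an unusual Aux/IAA protein that in Arabidopsis lacks the part through which auxin marks such proteins for removal. IAA33 was at 0.170, 0.240 and 0.290 FPKM in MPS replicates 1, 2 and 3 and 0.740, 3.75 and 1.75 FPKM in TPS replicates 1, 2 and 3. The sections did not overlap, and the log2 fold change was -3.22 (standard error 0.81, adjusted p = 0.131 from edgeR, and 0.0128 to 0.405 under the alternatives). It was much scarcer than AUX28 in every library.

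Of 5 genes of auxin transport and synthesis, 3 were tested, with a median log2 fold change of -3.75. A WAT1-related gene (whole_GLEAN_10002488) belongs to the family of WALLS ARE THIN1, which exports auxin from the vacuole in Arabidopsis and is needed there for secondary walls of fibers. It was at 3.85, 0.450 and 1.17 FPKM in MPS replicates 1, 2 and 3 and 29.2, 15.8 and 29.2 FPKM in TPS replicates 1, 2 and 3, and its log2 fold change was -3.75 (standard error 0.80). The adjusted p was 0.0942 from edgeR, and 1.55e-05 to 0.324 under the alternatives. PILS7 (whole_GLEAN_10001426), of the PIN-LIKES family of auxin carriers, was listed in no MPS library and was at 1.19, 0.460 and 0.810 FPKM in TPS. It was at least 49.1-fold lower in MPS by the floor of 3 counts over the MPS libraries (adjusted p = 0.063 from edgeR, and 4.53e-06 to 0.299 under the alternatives).

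Among 6 genes of cyclins and of a cyclin-dependent kinase inhibitor, CYCU2-1 was the only abundant one. The 6 genes summed to 23.7 to 41.1 FPKM in MPS and 102 to 259 FPKM in TPS. All 4 genes that passed edgeR's filter, the inhibitor KRP7 (-2.53) among them, had negative log2 fold changes. The median was -2.52 (-2.53 without CYCU2-1). Over all tested genes, 48.2% had a negative log2 fold change. CYCD1-1 (whole_GLEAN_10003368), a D-type cyclin of the entry into the cell cycle, was at 0.210, 0 and 0.0800 FPKM in MPS replicates 1, 2 and 3 and 2.42, 1.09 and 0.410 FPKM in TPS replicates 1, 2 and 3. Its log2 fold change was -3.84 (standard error 1.23, adjusted p = 0.21 from edgeR, and 0.0303 to 0.489 under the alternatives). A gene of another P-type cyclin, matched to CYCP3-1 of rice (whole_GLEAN_10010173), was the one gene of the list with every MPS library above every TPS library. It was chosen after its values were seen, and was at 0.970, 0.490 and 0.190 FPKM in MPS and 0, 0 and 0.0400 FPKM in TPS, and it did not pass edgeR's filter.

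The list of replication and mitosis held 9 genes, of which 5 were tested, with a median log2 fold change of -1.84. The gene for the small chain of ribonucleotide reductase (whole_GLEAN_10001816), which makes the building blocks of DNA, was at 1.91, 2.18 and 2.59 FPKM in MPS replicates 1, 2 and 3 and 13.7, 5.12 and 5.95 FPKM in TPS replicates 1, 2 and 3 (log2 fold change -1.84, standard error 0.41, adjusted p = 0.1 from edgeR, and 0.00112 to 0.334 under the alternatives). RPA1B (whole_GLEAN_10007069), a subunit of the protein that coats single-stranded DNA, was at 0.660, 0.580 and 0.650 FPKM in MPS and 4.69, 1.71 and 1.36 FPKM in TPS (log2 fold change -1.97, standard error 0.49, adjusted p = 0.128 from edgeR, and 0.00522 to 0.399 under the alternatives). In both genes TPS replicate 1 was the highest library, whereas it was the lowest TPS library in AUX28, SAUR32 and CYCU2-1. The one tested gene with a positive log2 fold change, GCP3 (whole_GLEAN_10008250), of the complex that starts microtubules, was chosen after its values were seen. It was at 0.410, 0.0600 and 0.0400 FPKM in MPS and 0, 0.0600 and 0.10 FPKM in TPS, which overlap (adjusted p = 0.724 from edgeR).

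**Figure D4:**
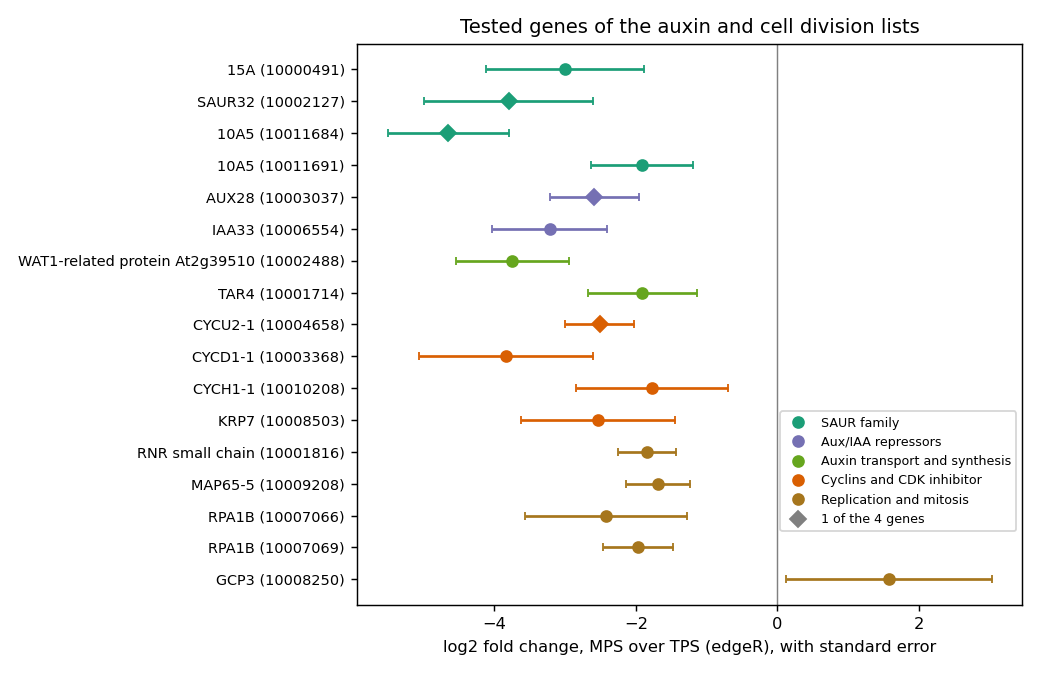
Fitted log2 fold change of MPS over TPS from edgeR (x axis) with its approximate standard error for the tested genes of the auxin and cell division lists, colored by list, with diamonds for the 4 genes. PILS7, listed in no MPS library, is left out because its fitted value is no measure of size. All but GCP3 lie below 0, and the genes of these lists were drawn from the study's own table of changed genes.

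Markers of other cell types were also drawn from the part of the study's table of changed genes at hand. Genes that the study did not count as changed could not enter. A difference between the sections in these markers is therefore no independent evidence, and their levels are given as a description. Of 4 epidermis markers, WIN1 and CER1 were listed in no MPS library and not in TPS replicate 1. In TPS replicates 2 and 3, WIN1 was at 0.17 and 0.30 FPKM and CER1 at 0.14 and 0.11 FPKM. HDG11 stayed at 0.180 FPKM or less in every library. At such low levels, the absence of WIN1 and CER1 from MPS says little. ROC2, a homeodomain factor of the epidermis, was at 2.69, 3.04 and 4.40 FPKM in MPS replicates 1, 2 and 3 and 7.85, 21.2 and 12.1 FPKM in TPS replicates 1, 2 and 3. Within TPS, this is the order of replicates seen in AUX28, IAA33, SAUR32 and CYCU2-1. The summed epidermis markers were at 2.69 to 4.50 FPKM in MPS and 8.0 to 21.7 FPKM in TPS, nearly all of it from ROC2. The 3 photosynthesis markers summed to 0.620 to 2.15 FPKM in MPS and 3.88 to 6.09 FPKM in TPS. This difference rests on CAB25, at 0.35 to 1.99 FPKM in MPS and 3.33 to 6.09 FPKM in TPS. RCA overlapped, at 0.16, 0 and 0 FPKM in MPS and 0.55, 0.15 and 0 FPKM in TPS replicates 1, 2 and 3. LHCB7 was at 0 in every library but MPS replicate 2. SEOB, a protein of phloem sieve elements, was at 0.490 to 2.73 FPKM in MPS and 0.0200 to 0.210 FPKM in TPS. The part of these cell types in the values of the 4 genes was not tested.

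The 4 genes were also compared in their pattern over the libraries. On the log2 (FPKM + 0.5) scale over the 6 libraries, Pearson's r was 0.969 between SAUR32 and CYCU2-1 and 0.857 between SAUR32 and AUX28. It was 0.830 between AUX28 and CYCU2-1. With the 10A5 gene, r was 0.805 for AUX28, 0.751 for CYCU2-1 and 0.738 for SAUR32. Over the 4 libraries of replicates 2 and 3, r was 0.989 between SAUR32 and CYCU2-1, 0.983 between SAUR32 and AUX28 and 0.974 between AUX28 and CYCU2-1, so that the lower values of AUX28 with these genes rest on replicate 1. With the 10A5 gene it was 0.873 for AUX28, 0.753 for CYCU2-1 and 0.827 for SAUR32. These values describe 6 libraries that share their sections, their depth and the picking of the genes for the same difference.

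The genes most like each of the 4 were sought among 213 annotated genes with a mean of at least 1 FPKM and a Swiss-Prot name in the table at hand, which is the study's table of changed genes. Closer genes exist outside it. Over all 10550 genes searched, r was at least 0.95 for 126 genes with AUX28, 110 with the 10A5 gene, 58 with SAUR32 and 54 with CYCU2-1. Among the named genes, those closest to AUX28 were matched to TBL37, of a family that acetylates wall polymers (Pearson's r = 0.995 over the 6 libraries), to a sulfated surface glycoprotein of the alga Volvox (r = 0.991) and to FT1 of pea, which adds fucose to xyloglucan (r = 0.985). TBL37 was at 3.5, 12.4 and 10.9 FPKM in MPS replicates 1, 2 and 3 and 22.5, 87.9 and 57.1 FPKM in TPS replicates 1, 2 and 3. Like AUX28, it was lowest in replicate 1 of both sections.

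Closest to the 10A5 gene among the named genes were those matched to DIR23, a dirigent protein (r = 0.990), SOT15, a sulfotransferase (r = 0.988), and EXPA8, an expansin that loosens the wall (r = 0.986). EXPA8 was at 7.46, 6.80 and 8.40 FPKM in MPS and 42.7, 34.5 and 93.8 FPKM in TPS replicates 1, 2 and 3. It had the order of TPS replicates of the 10A5 gene at a higher level.

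Among these 213 named genes, SAUR32 and CYCU2-1 shared their 2 closest. These were matched to RPH8A, a disease resistance protein (r = 0.988 with SAUR32 and 0.993 with CYCU2-1), and to BAM3, a receptor kinase that acts in the phloem of Arabidopsis (r = 0.979 and 0.983). The third was IAA33 for SAUR32 (r = 0.959) and an F-box protein gene matched to At2g26850 for CYCU2-1 (r = 0.978). RPH8A was at 2.07, 0.670 and 0.770 FPKM in MPS replicates 1, 2 and 3 and 4.92, 21.3 and 9.22 FPKM in TPS replicates 1, 2 and 3, and BAM3 at 2.27, 1.39 and 1.96 FPKM in MPS and 4.65, 8.27 and 6.04 FPKM in TPS. In both, as in CYCU2-1, replicate 1 was the highest library within MPS and the lowest within TPS.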

How the data were processed

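RNA freed of ribosomal RNA was sequenced from 3 MPS and 3 TPS bark samples, grouped by the tissue in their labels. Expected counts come from the authors, who aligned reads to the ramie genome with Bowtie2 and counted them per transcript with RSEM. FPKM values were also calculated by the authors, per length and depth, with none below 0.01 in the files. The deposited length column, in bases, was used as given. HISAT, StringTie and Cufflinks are named in the submitters' processing notes, without versions. FPKM rests on an effective length shorter than the gene, 148 to 171 bases for the 300 bases of the 10A5 gene in TPS, so that short genes are less precise.

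Rounded counts of all transcripts were compared in one fit with edgeR 4.0.16 (quasi-likelihood, TMM, filterByExpr) in R 4.3.3, and p was adjusted over the 13585 annotated genes tested (Benjamini-Hochberg). A call required adjusted p below 0.05 together with a log2 fold change of 1 or more in size. Approximate standard errors were obtained by dividing the size of the log2 fold change by the root of F. Alternatives were DESeq2 1.42.0, limma 3.58.1 on log2 FPKM, other scalings, no filter, annotated genes alone, a replicate block and left-out libraries. The scripts were tested on simulated data. Summaries and plots used scipy 1.17.1, pandas 2.3.3, numpy 2.4.6 and matplotlib 3.10.9 under Python 3.11.15.

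The replicate numbers come from the sample titles. Across genes, same-numbered deviations from the section means correlated at 0.492, 0.199 and 0.230 for replicates 1, 2 and 3. Replicates 2 and 3 also correlated crosswise, at 0.240 for MPS replicate 3 with TPS replicate 2 and 0.146 for the reverse. The former lies above the same-numbered values of replicates 2 and 3. Replicate 1 correlated with the others at -0.368 to -0.273. These values set replicate 1 apart but do not establish the pairs within replicates 2 and 3. Same numbers were set side by side as pairs in the description and in the replicate block, which was an alternative only. The main fit was unpaired.

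The 4 genes and the lists were chosen with earlier results of these data known. The names come from the part of the study's table at hand, 964 genes, joined on the gene number, and its columns on the comparison of the sections were not used. Named were the 4 genes, up to 2 genes with the lowest p per list where fewer than 2 were called, the SAUR genes that share the best match of the 10A5 gene, and the 3 named genes most like each of the 4. Others are marked where they occur. The methods call the replicates biological and do not say that they were separate plantings, so that p-values measure the spread between these samples. The small RNA and circRNA files were not used here.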

Additional observations from a re-analysis of the deposited data

How the results depend on the processing

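In each of the 4 genes, picked as lower in MPS, every MPS library lay below every TPS library. The sign could therefore hardly change under an alternative, and only the size is of interest. The 4 log2 fold changes were negative under all 16 alternatives run for each gene. They were -2.98 to -2.24 for AUX28, -3.08 to -1.87 for CYCU2-1, -5.25 to -2.16 for SAUR32 and -5.41 to -2.96 for the 10A5 gene. Leaving out each library in turn gave -2.98 to -2.24 for AUX28, -2.79 to -1.87 for CYCU2-1, -4.82 to -3.16 for SAUR32 and -5.41 to -4.07 for the 10A5 gene. Adding 0.5 to FPKM moved SAUR32 to -2.16 and the 10A5 gene to -2.96 in limma, with or without its filter, as a pseudocount shrinks low values, and replicates 2 and 3 alone gave -5.25 for SAUR32.

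Counts of calls depended on the tool and on single libraries. Against 76 annotated genes lower and 33 higher, DESeq2 called 694 and 388, limma with 0.5 added 229 and 87, with 0.1 added 212 and 89, and with 0.5 added and no filter 149 and 50. edgeR without a filter called 14 and 4, with replicates 2 and 3 only 201 and 114, and with the replicate block 52 and 20. Leaving out 1 library gave 0 to 33 lower and 0 to 7 higher, namely 33 lower without TPS replicate 1, 1 without TPS replicate 2 and 0 without TPS replicate 3 or any MPS replicate, and in each case 0 of the list genes. Of the auxin lists, 6 genes were called lower by DESeq2, 3, 2 and 2 by the limma settings in the same order, 1 with the replicate block and 2 with replicates 2 and 3 only. Of the cell division lists, 5 were called lower by DESeq2, and 1 by limma with 0.5 added and 1 with 0.1 added. These list counts include the 4 genes, which were picked for this contrast, and the limma calls in cell division are CYCU2-1. Without the 4 genes, DESeq2 called 3 auxin and 4 cell division genes lower (background 5.11%). Limma with 0.5 added called 2 and 0 (background 1.84%). Of the 4 genes, 4 were called by DESeq2, 2 by limma with 0.5 added and 2 with 0.1 added, 1 with the replicate block and 1 with replicates 2 and 3 only. The gene called with the block was AUX28, and the block changed no other call of a list gene. Causes of these differences were not tested. Few reads, 1 to 3 for the 10A5 gene and 0 to 5 for SAUR32 in MPS libraries, limit how far the size of their difference can be given.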
